A study of Mus musculus with 8 samples.

Results

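Protocadherins are the largest group of the cadherin superfamily of adhesion proteins. The members described here were all rows of the deposited gene table whose symbol starts with Pcdh, 70 of 54532 rows. They were split into the clustered genes, with 14 Pcdha, 22 Pcdhb and 22 Pcdhg rows, and 12 non-clustered genes. RNA of L3-L5 dorsal root ganglia was measured in C57BL/6 mice in which monosodium iodoacetate injected into a joint was used to model osteoarthritis. In the MIA_Acu group (4 libraries) the injected mice were needled by hand each day for 7 days at ST36, an acupuncture point of the lower leg, and in the MIA group (4 libraries) the labels name the injection alone. Both groups carry the joint injury, and no uninjured or sham-needled mice were analysed here, so needling and handling cannot be told apart. Age and sex of the animals are not given in the labels, which also do not tie a library to 1 animal.

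The clustered protocadherins lie next to each other in 3 arrays. Each Pcdha or Pcdhg gene has a variable first exon with its own promoter, which is spliced to constant exons that the whole cluster shares, whereas each Pcdhb gene is a single coding exon. A neuron switches on a small, largely random choice of the alternate genes, a choice that depends on CTCF, cohesin and promoter methylation, while the C-type genes at the end of the Pcdha and Pcdhg arrays are not chosen at random. The proteins bind their own kind between membranes, and this lets a neuron tell its own branches from those of others. In sensory and spinal circuits the Pcdhg genes are also known for neuronal survival. The non-clustered members, mostly of the delta group, act in cell sorting, axon growth and synapse formation, and several recruit the WAVE complex to remodel actin.

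Library totals were 35440711 to 36807864 counts in MIA_Acu and 32892804 to 40627041 counts in MIA. Each library held ganglion neurons: 15 pan-neuronal markers summed to 9602 to 11586 CPM (counts scaled to library size) in MIA_Acu and 11209 to 14744 CPM in MIA, with each marker lower on average in MIA_Acu. Libraries differed in other tissue. Spinal cord glia markers, none of the 12 at 0 in all libraries, summed to 393 and 446 CPM in MIA_Acu 2 and MIA_Acu 5, against 41.4 and 76.8 CPM in the other MIA_Acu libraries and 35.9 to 153 CPM in MIA. Bone and cartilage markers were at 757 CPM in MIA_Acu 3, against 47.4 to 99.4 CPM in its group and 41.9 to 82.4 CPM in MIA. Myelinating Schwann cell markers took 22657 to 42839 CPM in MIA_Acu and 7878 to 27281 CPM in MIA. In bulk RNA, fewer cells of a type and less RNA per cell cannot be told apart.

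The sources used here do not say how reads of shared exons were counted. In GENCODE M21 (GRCm38), used here for lengths only, a typical Pcdha gene such as Pcdha9 has 5341 exon bases, of which 2860 are shared with other Pcdha genes and 2481 are its own. Pcdhga10 has 0 bases of its own, with 2613 shared with the processed transcript Gm26672, and it had 0 counts in all 8 libraries. Pcdha4 has 404 bases of its own and had 13 counts in all. The symbol Pcdha11 stands on 2 rows. One of them (ENSMUSG00000102206), which shares 2486 bases with an antisense transcript, had 11 counts in all, and Pcdha11 below means the other row (ENSMUSG00000007440). Levels were compared per kilobase of unshared exon beside the value per kilobase of all exons.

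Of the 70 rows, 65 had enough counts to be tested. The 5 that did not were Pcdha4, Pcdha8, the second Pcdha11 row, Pcdhb1 and Pcdhga10. Pcdha8, with 2478 unshared bases, had 3, 1, 0 and 12 counts in MIA_Acu libraries and 4, 12, 18 and 6 in MIA libraries, close to the detection limit at this depth. Pcdhb1, an outlying member at the start of its array, had 2 counts in all, both in MIA_Acu 2. For Pcdhga10, which has 0 unshared bases, the count of 0 sets no limit on its level, since reads of shared bases may not have been counted.

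By level, a handful of members carried most of the signal, as the plot of levels per kilobase shows. The non-clustered genes summed to 416 ± 18.4 CPM in MIA_Acu and 463 ± 18.4 CPM in MIA (SD, n = 4 each), well above Pcdha, Pcdhb and Pcdhg. Per kilobase of unshared exon, the mean of 8 libraries was 16.9 CPM for Pcdhac2, 14.4 for Pcdh9, 12.2 for Pcdh1, 9.99 for Pcdh7, 8.87 for Pcdhac1 and 6.3 for Pcdhgc3. Per kilobase of all exons Pcdh9 came first (14.4), then Pcdh1 (12.2), Pcdhac2 (8.69), Pcdh7 (7.89) and Pcdhac1 (4.19), so the place of the C-type genes depends on the length used. Alternate members were lower, and in Pcdha the tested ones ran from 0.586 CPM per unshared kilobase (Pcdha1) to 2.59 (Pcdha12).

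**Figure D1:**
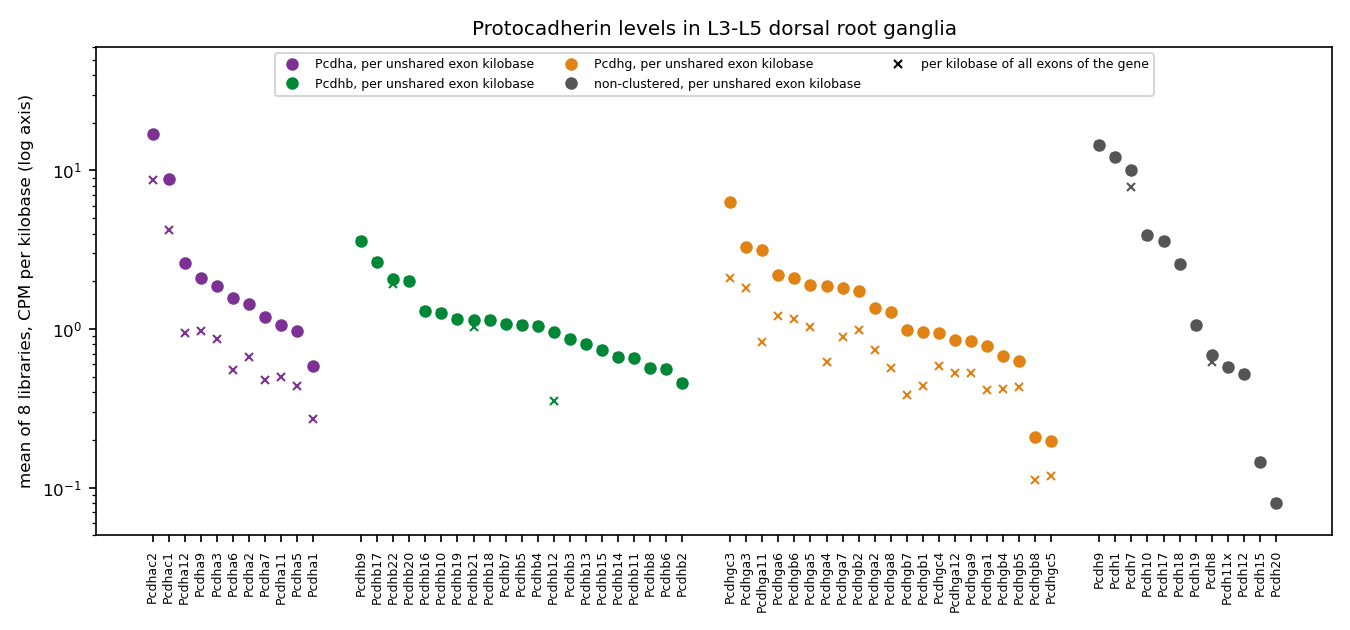
Mean level of the 65 tested protocadherin genes over 8 libraries, in CPM per kilobase on a log axis, ordered within each group. Dots use exon bases not shared with another gene and crosses use all exon bases (hidden where both agree); Pcdhac2, Pcdhac1 and Pcdhgc3 stand above the alternate members of their clusters, and Pcdh9, Pcdh1 and Pcdh7 lead the non-clustered genes.

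Position along an array went with level in part. Over 13 Pcdha genes Spearman's rho between place in the array and CPM per unshared kilobase was 0.59, and over 22 Pcdhb genes it was 0.61, while over 21 Pcdhg genes it was -0.23. These points share libraries and neighbouring promoters and are given as a description. The Pcdha value includes the C-type genes Pcdhac1 and Pcdhac2, last in the array and highest in level. No rho of level over the alternate Pcdha genes alone was computed. Within Pcdha, the C-type pair Pcdhac1 and Pcdhac2 gave 70.9 ± 1.88% of the summed CPM in MIA_Acu and 70.6 ± 0.758% in MIA (SD, n = 4 each), and the groups overlapped in this share.

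The comparison of MIA_Acu with MIA asked which transcripts of the ganglion differ after acupuncture. In all 8 libraries 0 of 65 tested protocadherin genes passed edgeR's quasi-likelihood test at an adjusted p under 0.05, beside 0% of all 18971 genes tested. On the same libraries limma voom also called 0 members. DESeq2 called 6 members lower and 0 higher, beside 6.44% and 5.94% of all genes it tested: Pcdhac1, Pcdhac2, Pcdha11, Pcdha12, Pcdhb21 and Pcdhga1. At an unadjusted p under 0.05 edgeR had 12 members lower (18.5% of those tested) and 0 higher, beside 10.6% and 11.2% of all genes. The 12 were Pcdhac1, Pcdhac2, Pcdha9, Pcdha11, Pcdha12, Pcdhb21, Pcdhga1, Pcdhga3, Pcdhga7, Pcdh1, Pcdh8 and Pcdh10.

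Signs of the differences were uneven among the groups of genes. Of tested members, 11 of 11 Pcdha genes had a negative log2 fold change, as had 16 of 21 Pcdhb genes, 15 of 21 Pcdhg genes and 8 of 12 non-clustered genes, beside 47.1% of all genes tested. Median log2 fold changes were -0.43 for Pcdha, -0.04 for Pcdhb, -0.17 for Pcdhg and -0.14 for non-clustered genes, beside 0.02 for all genes. No test was run over these members, which share promoters, exons and libraries. Pcdhg changed sign between settings. Its median was 0.02 in the 6 libraries numbered 1, 2 and 5, whose columns match titles in both groups, and 0.21 when MIA 4 and MIA_Acu 3, the columns with no such match, were exchanged. Pcdhb also turned to 0.01 with that exchange, whereas Pcdha stayed lower, at a median of -0.35 with 11 of 11 lower.

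**Figure D2:**
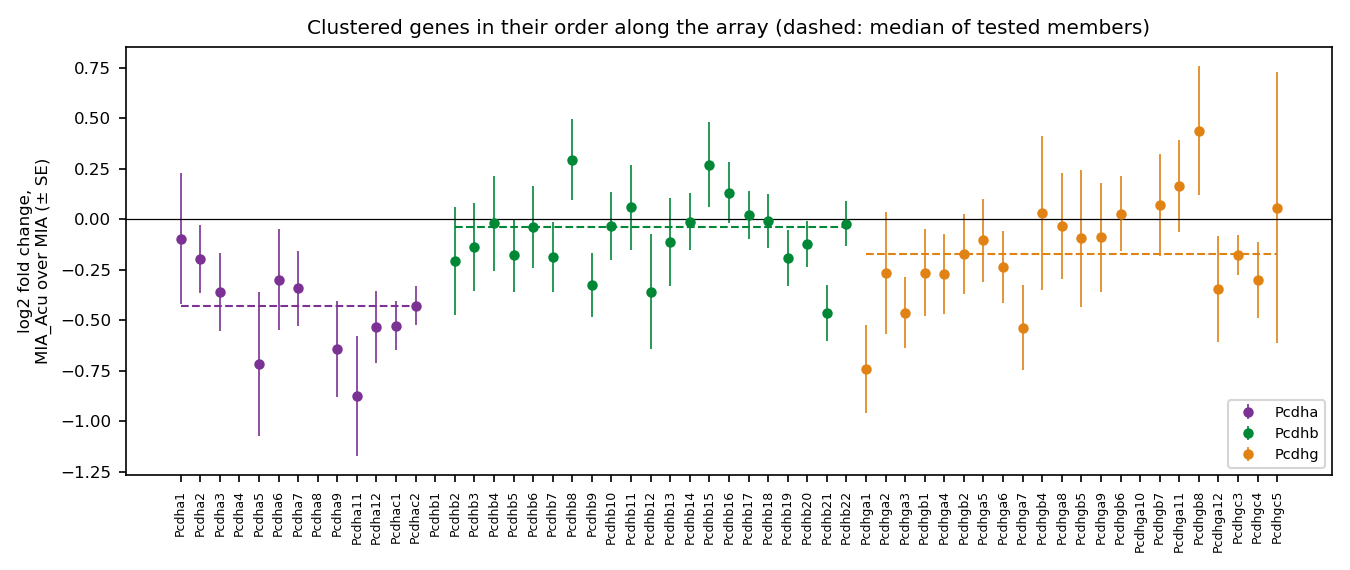
Log2 fold change (MIA_Acu over MIA, ± SE, edgeR, 8 libraries) of the tested clustered genes, placed in their order along the arrays, with dashed lines at the median of each cluster's tested members. All 11 tested Pcdha genes lie below 0 (median -0.43), Pcdhb genes scatter around 0 (median -0.04), and Pcdhg genes run from -0.74 at Pcdhga1 to 0.44 at Pcdhgb8. Pcdhgb8, annotated as a polymorphic pseudogene, had only 12 to 25 counts per library.

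Summed per library, Pcdha transcripts were at 101, 71.2, 94.4 and 85.3 CPM in MIA_Acu 1, 2, 3 and 5, against 121, 128, 110 and 126 CPM in MIA 1, 2, 4 and 5. Each MIA_Acu library was below each MIA library, MIA_Acu 2 lowest, and the mean of MIA_Acu was 0.726 times that of MIA. Pcdhb sums were 112, 102, 99.2 and 104 CPM in MIA_Acu, against 110, 112, 106 and 114 CPM in MIA, and overlapped. Pcdhg sums were 73.6, 69.3, 68.6 and 91.4 CPM in MIA_Acu, against 82.0, 78.8, 99.8 and 88.4 CPM in MIA, and overlapped too. The ratio of Pcdha to Pcdhb, which does not depend on library scaling, was 0.702 to 0.951 in MIA_Acu and 1.03 to 1.14 in MIA, without overlap. Neither the Pcdha sum nor this ratio would separate the groups with MIA 4 and MIA_Acu 3, the columns with no matching title, exchanged.

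Set against the pan-neuronal markers of the same library, Pcdha overlapped between groups and Pcdhb did not. Per 1000 CPM of summed pan-neuronal markers, Pcdha was at 8.53 ± 1.06 CPM in MIA_Acu and 9.32 ± 0.463 CPM in MIA (SD, n = 4 each), with overlap. Pcdhb was at 10.1 ± 0.498 CPM in MIA_Acu and 8.53 ± 0.763 CPM in MIA on this scale, higher in each MIA_Acu library. Pcdhg was at 7.41 ± 1.43 CPM in MIA_Acu and 6.81 ± 1.5 CPM in MIA, with overlap. The non-clustered genes were at 40.6 ± 3.81 CPM in MIA_Acu and 35.7 ± 2.99 CPM in MIA, also with overlap. The pan-neuronal sum itself averaged 0.79 times as much in MIA_Acu as in MIA, and its part in the Pcdha difference was not tested.

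**Figure D3:**
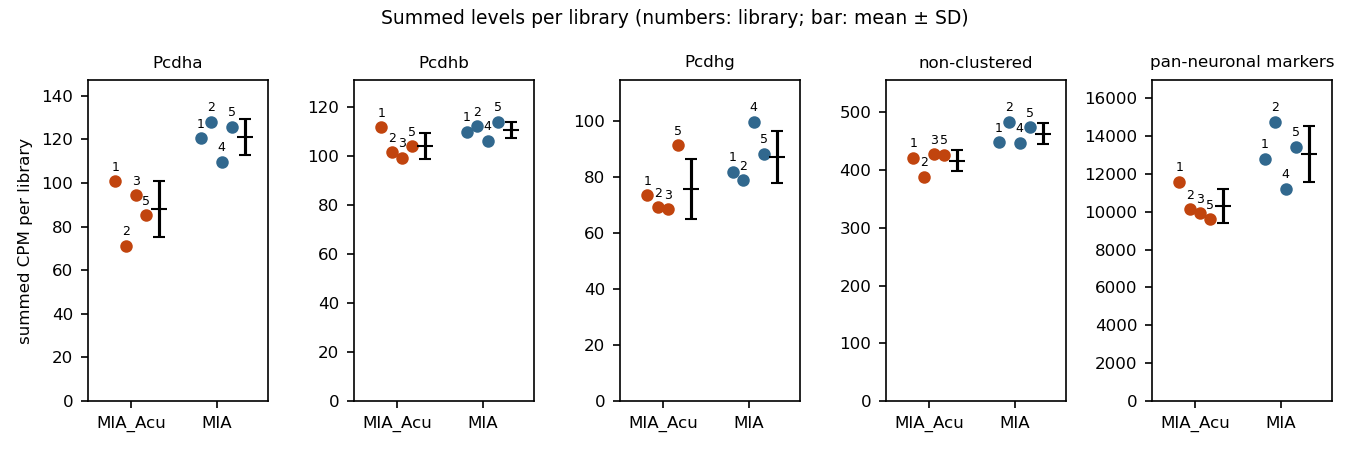
Summed CPM per library of the Pcdha, Pcdhb, Pcdhg and non-clustered genes and of 15 pan-neuronal markers, MIA_Acu left and MIA right, with library numbers on the points and mean ± SD beside them (n = 4 each). Pcdha (71.2 to 101 CPM in MIA_Acu, 110 to 128 CPM in MIA) and the non-clustered sum do not overlap between groups, while Pcdhb, Pcdhg and the pan-neuronal sum do.

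The C-type genes of the Pcdha cluster had the smallest p-values of all members. Pcdhac2 (ENSMUSG00000102697), the last promoter of the array, was at 48.4, 36.4, 45.7 and 44.1 CPM in MIA_Acu, against 58.4, 61.7, 52.6 and 62.2 CPM in MIA. No MIA_Acu library reached the lowest MIA library, MIA 4. Its log2 fold change was -0.43 (SE 0.10, adjusted p = 0.0881 by edgeR). Pcdhac1 (ENSMUSG00000103255), its neighbour, was at 21.4, 14.5, 20.1 and 18.4 CPM in MIA_Acu, against 25.5, 29.4, 25.6 and 26.7 CPM in MIA. Again the groups did not overlap and MIA_Acu 2 was lowest, at -0.53 on the log2 scale (SE 0.12, adjusted p = 0.0881 by edgeR).

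The tested alternate Pcdha genes gave 28 to 322 counts per library each, so single values are less precise. Pcdha12 was at 5.62, 3.36, 3.62 and 3.89 CPM in MIA_Acu, against 6.3, 5.84, 5.96 and 5.75 CPM in MIA, lower in each MIA_Acu library. Pcdha9 was at 5.79, 2.63, 4.27 and 3.62 CPM in MIA_Acu, against 6.3, 5.77, 5.49 and 7.92 CPM in MIA, with MIA_Acu 1 inside the MIA range. The largest difference among tested Pcdha members was that of Pcdha11, at 2.17, 1.26, 2.59 and 1.51 CPM in MIA_Acu, against 4.6, 2.45, 2.66 and 4.08 CPM in MIA, where MIA_Acu 3 lay above MIA 2. Log2 fold changes were -0.53 (SE 0.18) for Pcdha12, -0.64 (SE 0.24) for Pcdha9 and -0.87 (SE 0.30) for Pcdha11, with edgeR adjusted p of 0.146, 0.169 and 0.149, none past the threshold. Pcdha3 was at 3.94, 2.99, 4.49 and 4.66 CPM in MIA_Acu, against 4.84, 6.55, 4.56 and 4.67 CPM in MIA, so that MIA_Acu 5 lay above MIA 4. The other tested members, Pcdha1, Pcdha2, Pcdha5, Pcdha6 and Pcdha7, had log2 fold changes of -0.72 to -0.10 and overlapped between groups. MIA_Acu 2 held the lowest value of 8 of the 11 tested Pcdha genes and MIA_Acu 5 that of the other 3. These were also the libraries richest in spinal cord glia markers, whose part in the Pcdha values was not tested. Without both libraries (left out after their marker values were seen), 9 of 11 Pcdha genes were lower, with a median of -0.29 against -0.43 in all 8 libraries.

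Log2 fold changes of the Pcdhb genes ran from -0.46 to 0.30. Pcdhb22 was at 13.9, 13.1, 12.6 and 11.2 CPM in MIA_Acu, against 11.1, 13.4, 12.4 and 14.5 CPM in MIA. Pcdhb17 was at 14.5, 12.8, 11.7 and 10.4 CPM in MIA_Acu, against 12.1, 12.7, 11.2 and 12.8 CPM in MIA. The groups overlap for both, the members of the array with the highest mean CPM over 8 libraries, with log2 fold changes of -0.02 (SE 0.11) and 0.02 (SE 0.12). Pcdhb9, the highest per kilobase at 3.61 CPM, was at 11.7, 7.61, 10.9 and 8.9 CPM in MIA_Acu, against 14.1, 12.4, 9.97 and 12.6 CPM in MIA, where MIA 4 lay inside the MIA_Acu range. Pcdhb21 stood apart, at 4.19, 3.44, 4.49 and 4.11 CPM in MIA_Acu, against 5.91, 5.43, 5.62 and 5.46 CPM in MIA, with no overlap. Its log2 fold change was -0.46 (SE 0.14, edgeR adjusted p = 0.124), and that of Pcdhb9 -0.33 (SE 0.16, adjusted p = 0.262), neither past the threshold. On the other side, Pcdhb8 and Pcdhb15 had the most positive values, 0.30 (SE 0.20) and 0.27 (SE 0.21), with overlap. These 2 were named after their values were seen.

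In the Pcdhg cluster the most negative value was that of the first gene of the array. Pcdhga1 was at 1.57, 1.37, 1.8 and 1.92 CPM in MIA_Acu, against 2.77, 3.57, 2.16 and 2.61 CPM in MIA, with no overlap. Pcdhga3 was at 8.02, 4.89, 7.97 and 8.0 CPM in MIA_Acu, against 9.25, 11.5, 8.84 and 10.2 CPM in MIA, again with no overlap and with MIA_Acu 2 far below the rest. Their log2 fold changes were -0.74 (SE 0.22, edgeR adjusted p = 0.123) and -0.46 (SE 0.18, adjusted p = 0.176). Farther along, Pcdhga6 was at 5.88, 4.28, 4.19 and 6.57 CPM in MIA_Acu, against 5.97, 6.71, 6.6 and 5.39 CPM in MIA. Pcdhgb6 was at 5.76, 4.7, 4.79 and 6.49 CPM in MIA_Acu, against 6.09, 4.25, 6.41 and 4.6 CPM in MIA. Both overlap, with log2 fold changes of -0.24 (SE 0.18) and 0.03 (SE 0.18). Over 18 tested A and B members, place in the array and log2 fold change had a Spearman's rho of 0.67, over 21 with the C-type genes 0.50. In Pcdha the sign was opposite, at -0.68 over 9 tested alternate members and -0.56 over 11 with the C-type genes. For 21 tested Pcdhb genes rho was 0.13. These values are a description over genes that share 8 libraries.

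MIA 4, the MIA column whose number matches no title, held the highest value of 9 of 21 tested Pcdhg genes and the lowest of 0, but the highest of 0 of 11 Pcdha and 1 of 21 Pcdhb genes. Pcdhgb5, named after its values were seen, was at 4.93 CPM in MIA 4, against 1.67 to 2.77 CPM in the other MIA libraries and 2.0 to 3.72 CPM in MIA_Acu. Within MIA_Acu the counterpart was MIA_Acu 5, highest for 4 Pcdhg genes. Spinal cord glia markers in these libraries were 153 CPM in MIA 4, the highest of its group, and 446 CPM in MIA_Acu 5. MIA_Acu 2, at 393 CPM of these markers, held the highest value of 2 Pcdhg genes and the lowest of 5. Its Pcdhg sum was 69.3 CPM. The part of these markers in the Pcdhg values was not tested.

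The Pcdhg array ends in 3 C-type genes. Pcdhgc3, a broadly transcribed member, was at 10.2, 10.8, 10.2 and 11.9 CPM in MIA_Acu, against 11.3, 11.8, 12.8 and 12.9 CPM in MIA, with MIA_Acu 5 inside the MIA range and a log2 fold change of -0.18 (SE 0.10, edgeR adjusted p = 0.324). Of its exon bases 1559 are shared with the antisense gene BC037039, and the strand setting is not given. Pcdhgc4, the member known for neuronal survival, was at 2.4, 3.02, 2.53 and 3.83 CPM in MIA_Acu, against 3.71, 3.81, 3.56 and 3.44 CPM in MIA. All MIA_Acu libraries but MIA_Acu 5 lay below MIA, and the log2 fold change was -0.30 (SE 0.19, edgeR adjusted p = 0.373). Pcdhgc5, a late brain isoform, had 2, 56, 19 and 57 counts in MIA_Acu, against 28, 34, 27 and 45 counts in MIA. The MIA_Acu libraries fell on both sides of MIA, with MIA_Acu 2 and MIA_Acu 5, those richest in spinal cord glia markers, on top. Its log2 fold change of 0.06 (SE 0.67) became -1.61 without these 2 libraries (left out after their marker values were seen), and neither value passed the threshold.

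**Figure D4:**
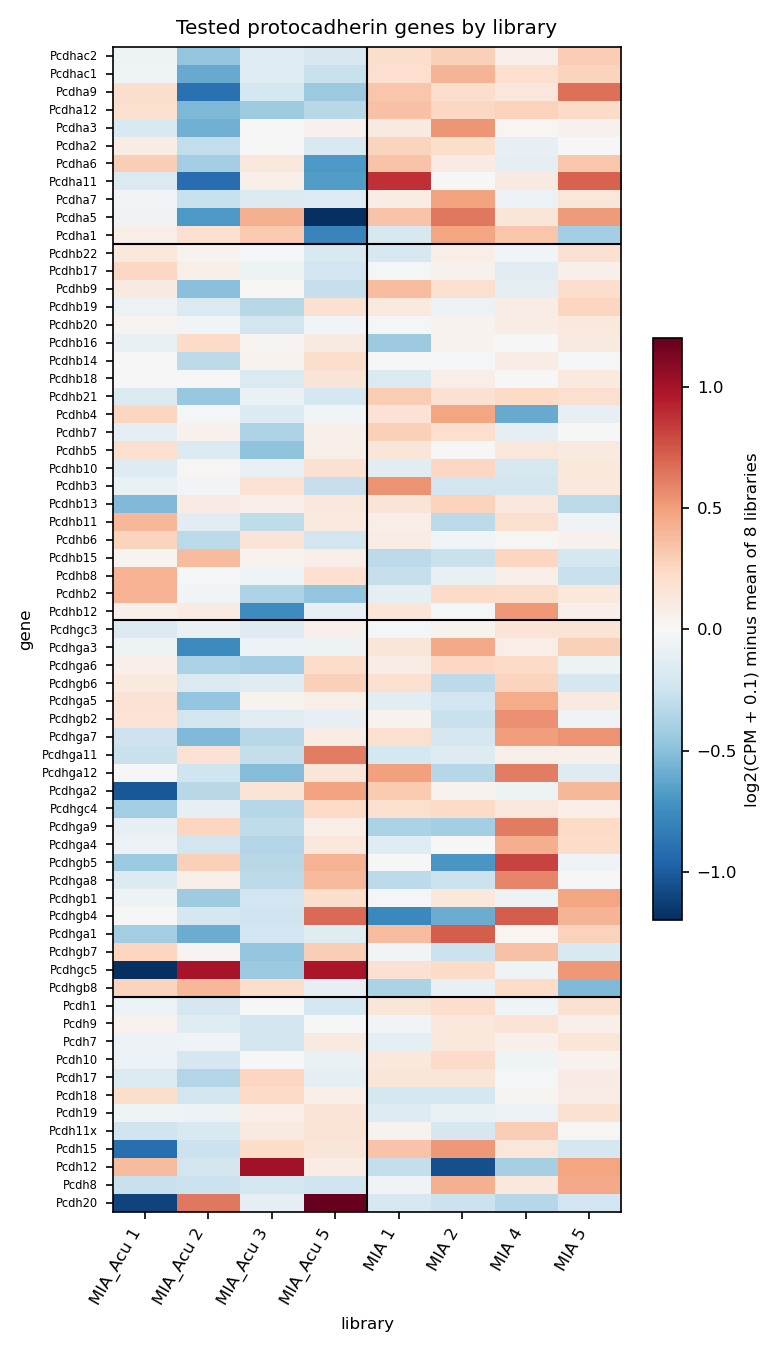
Each tested protocadherin gene (rows, by cluster and falling mean CPM) in each library (columns, MIA_Acu left of the black line and MIA right), as log2(CPM + 0.1) minus the mean of the 8 libraries, red higher and blue lower. The Pcdha block is mostly blue in MIA_Acu and red in MIA, the Pcdhg block is reddest in MIA 4, and Pcdhgc5 and Pcdh20 are red in MIA_Acu 2 and MIA_Acu 5.

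Among the non-clustered genes, promoter sequence is shown for Pcdh8, Pcdh10 and Pcdh17, members off the clusters' chromosome that were lower in MIA_Acu at an unadjusted p under 0.05 or fell in the 6 libraries. Each is the 250 bases before the RefSeq start (GRCm38.p6), 5′ to 3′ along the gene. Capitals mark CGCT or its reverse complement AGCG, the letters at the core of the conserved element known from promoters of the clustered genes. The windows are chr14:79771313-79771562 on the minus strand for Pcdh8, chr3:45378148-45378397 on the plus strand for Pcdh10 and chr14:84443313-84443562 on the plus strand for Pcdh17.
Pcdh8: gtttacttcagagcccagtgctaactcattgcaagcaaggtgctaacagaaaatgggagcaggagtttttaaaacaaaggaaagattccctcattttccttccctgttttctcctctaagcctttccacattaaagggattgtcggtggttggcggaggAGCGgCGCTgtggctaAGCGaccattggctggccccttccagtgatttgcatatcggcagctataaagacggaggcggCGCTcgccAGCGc
Pcdh10: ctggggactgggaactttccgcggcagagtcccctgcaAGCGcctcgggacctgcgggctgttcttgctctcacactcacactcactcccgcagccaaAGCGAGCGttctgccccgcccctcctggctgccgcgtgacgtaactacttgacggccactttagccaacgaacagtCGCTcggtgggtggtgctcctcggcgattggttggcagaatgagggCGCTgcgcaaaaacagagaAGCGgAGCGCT
Pcdh17: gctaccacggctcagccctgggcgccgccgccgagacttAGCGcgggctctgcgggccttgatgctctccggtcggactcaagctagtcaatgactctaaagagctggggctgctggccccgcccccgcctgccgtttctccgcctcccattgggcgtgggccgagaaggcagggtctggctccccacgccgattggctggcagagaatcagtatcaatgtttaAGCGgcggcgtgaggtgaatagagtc
The letters occur 5, 8 and 2 times, overlapping matches counted, against a median of 1 over 32851 windows of this length. At least as many as in Pcdh10 occur in 0.612% of all windows, at least as many as in Pcdh8 in 6.56%. At least as many as in Pcdh17 occur in 34.1%, and at least 1 in 55.7%. RefSeq windows were at hand for 9 of the 12 non-clustered genes, and each held the letters at least 1 time. Among those not shown, Pcdh18, with a positive log2 fold change of 0.16, had 7 matches. Pcdh7, Pcdh15 and Pcdh19 had 3 each, Pcdh9 had 2 and Pcdh20 had 1. The shown genes were picked by their lower values, so their match counts say nothing on direction. A match of 4 letters is a description and not a binding site, and GC content was 51.2%, 63.2% and 64.8% in the 3 windows, against a median of 52.4% over all.

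Of the delta-1 genes, Pcdh1, Pcdh9 and Pcdh7 held the highest levels per kilobase outside the clusters, and Pcdh11x was among the lower ones. Pcdh1 (ENSMUSG00000051375), an adhesion molecule of epithelia and neurons, was at 102, 93.2, 107 and 92.6 CPM in MIA_Acu, against 119, 124, 103 and 121 CPM in MIA, and only MIA 4 lay within the MIA_Acu range. The log2 fold change was -0.24 (SE 0.08, edgeR adjusted p = 0.139). Pcdh9, which is abundant in neurons, was at 100.2, 87.9, 83.5 and 97.9 CPM in MIA_Acu, against 95.3, 107, 109 and 102 CPM in MIA. Pcdh7, which in Xenopus is known as NF-protocadherin for its role in axons and neural fold cells, was at 79.2, 81.1, 71.7 and 89.6 CPM in MIA_Acu, against 76.9, 91.0, 86.9 and 92.4 CPM in MIA. Both overlap, at log2 fold changes of -0.16 (SE 0.08) and -0.11 (SE 0.08), and both turned slightly positive (0.03 and 0.02) with MIA 4 and MIA_Acu 3 exchanged. Pcdh11x, the X-linked member, was at 6.7, 7.02, 8.57 and 8.9 CPM in MIA_Acu, against 8.22, 6.89, 9.82 and 8.04 CPM in MIA, overlapping, with a log2 fold change of -0.08 (SE 0.15).

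Of the delta-2 genes, Pcdh8 alone did not overlap between groups. This gene, known in rat as arcadlin for its induction by synaptic activity, was at 2.28, 2.29, 2.37 and 2.33 CPM in MIA_Acu, against 2.68, 3.76, 3.03 and 3.84 CPM in MIA. Each MIA_Acu library was below each MIA library, and the log2 fold change was -0.52 (SE 0.18, edgeR adjusted p = 0.148). Its counts were 80 to 87 per MIA_Acu library and 88 to 156 per MIA library, and 436 of its 4538 exon bases are shared with an antisense gene. Pcdh10, an axon outgrowth gene that binds the WAVE complex, was at 58.2, 53.0, 61.4 and 57.6 CPM in MIA_Acu, against 66.5, 71.4, 58.9 and 62.9 CPM in MIA, where MIA 4 lay inside the MIA_Acu range (log2 fold change -0.17, SE 0.08, edgeR adjusted p = 0.218). Pcdh17, which also acts through WAVE in axon extension, was at 41.1, 36.3, 55.5 and 43.0 CPM in MIA_Acu, against 51.1, 51.4, 45.7 and 49.7 CPM in MIA. MIA_Acu 3, the column with no matching title, was above each MIA library and the other 3 MIA_Acu libraries were below each of them (log2 fold change -0.17, SE 0.12, adjusted p = 0.431). Pcdh19, the epilepsy gene of the X chromosome, and Pcdh18 had positive log2 fold changes of 0.06 (SE 0.11) and 0.16 (SE 0.13). Pcdh19 was at 10.5, 10.5, 11.6 and 12.2 CPM in MIA_Acu, against 9.8, 10.3, 10.4 and 12.4 CPM in MIA, and its sign turned with the exchange (-0.02). Pcdh18 was at 15.9, 11.7, 16.0 and 14.5 CPM in MIA_Acu, against 11.8, 11.8, 14.0 and 14.5 CPM in MIA, and both genes overlapped between groups.

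Of the remaining members, Pcdh12 and Pcdh15 are known from other cells. Pcdh12, a VE-cadherin-like gene of endothelium, was at 3.77, 2.46, 5.88 and 3.07 CPM in MIA_Acu, against 2.34, 1.33, 2.16 and 4.03 CPM in MIA, with MIA_Acu 3 highest and MIA 2 lowest. The 10 endothelial markers summed to 450 CPM in MIA_Acu 3 and 240 CPM in MIA 2, also the highest and lowest of the 8 libraries. The libraries between were not in the same order. MIA 5 had 268 CPM of these markers with Pcdh12 at 4.03 CPM, and MIA_Acu 2 had 366 CPM with Pcdh12 at 2.46 CPM. The part of these markers in the Pcdh12 values was not tested. The log2 fold change of Pcdh12, 0.62 (SE 0.36, edgeR adjusted p = 0.35), became -0.25 with MIA 4 and MIA_Acu 3 exchanged. Pcdh15, the tip-link protein of hair cells, was at 1.71, 2.74, 3.86 and 3.67 CPM in MIA_Acu, against 4.2, 4.77, 3.64 and 2.85 CPM in MIA. Pcdh20 had 4, 22, 12 and 48 counts in MIA_Acu, against 10, 11, 10 and 12 counts in MIA. MIA_Acu 5 and MIA_Acu 2 were highest for Pcdh20, as for Pcdhgc5, and its log2 fold change of 1.04 (SE 0.62) became -0.37 without these 2 libraries.

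**Figure D5:**
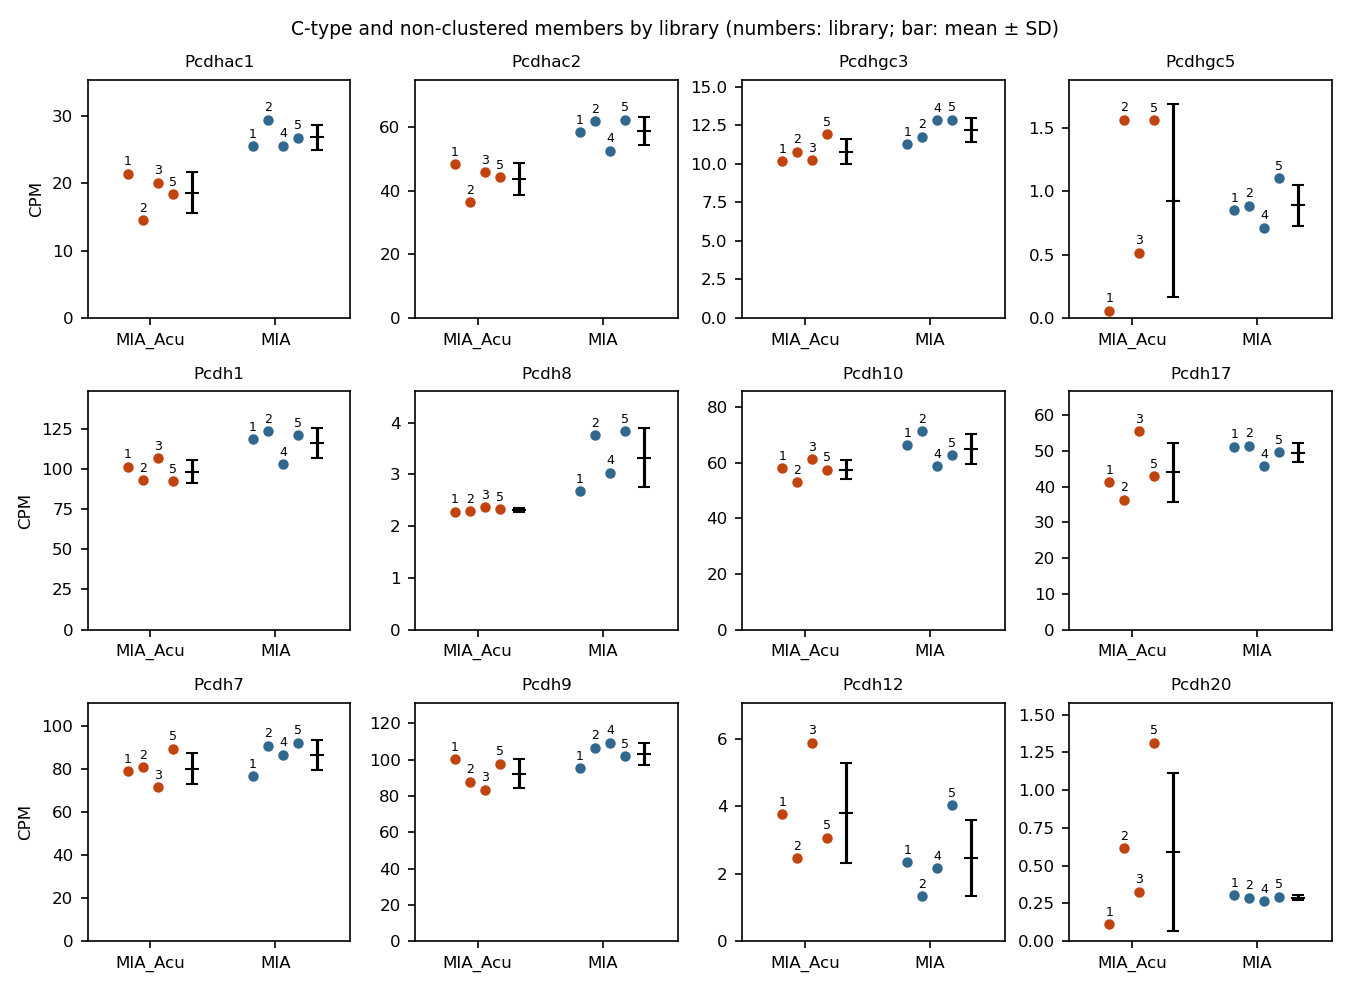
CPM of 4 C-type and 8 non-clustered members in each library, MIA_Acu left and MIA right, with library numbers on the points and mean ± SD beside them (n = 4 each). Pcdhac1, Pcdhac2 and Pcdh8 do not overlap between groups, and Pcdh17 does so through MIA_Acu 3 alone, at 55.5 CPM.

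Counting members without overlap in any direction, 7 of 65 were lower in each MIA_Acu library than in each MIA library, beside 5.91% of all genes tested. They were Pcdhac1, Pcdhac2, Pcdha12, Pcdhb21, Pcdhga1, Pcdhga3 and Pcdh8. None was higher in each MIA_Acu library, beside 4.95% of all genes.

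Restricted to the 6 libraries numbered 1, 2 and 5, edgeR called 4 members lower, beside 4.14% of all 18941 genes tested, and 0 higher, beside 6.22%. Pcdh1 fell by 0.35 on the log2 scale (adjusted p = 0.0221, 0.0221 to 0.52 over 17 alternatives). Pcdhac2 fell by 0.51 (adjusted p = 0.0247, 0.00446 to 0.378), Pcdhac1 by 0.59 (adjusted p = 0.0359, 0.00377 to 0.371) and Pcdh17 by 0.35 (adjusted p = 0.0353, 0.0353 to 0.923). Leaving out MIA 4 alone was enough for Pcdh1, Pcdhac1 and Pcdhac2 to pass (3 members lower, beside 3.45% of all genes, and 0 higher, beside 3.52%). With the replicate number as a block in the 6 libraries, 3 members fell (Pcdh1, Pcdha11 and Pcdhac2), beside 2.49% of all genes, and 0 rose, beside 5.35%. In the 6 libraries 11 of 11 tested Pcdha genes were lower (median -0.49), and Pcdhg was split, with 10 of 21 lower.

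Genes that work with protocadherins were read from lists. Of 20 genes that set promoter choice and chromatin of the clusters, 0 passed in either direction in 8 libraries (13 higher and 7 lower, median 0.07, with 5 higher and 1 lower at an unadjusted p under 0.05, beside 11.2% and 10.6% of all genes). Ctcf, whose protein loops the cluster's enhancers to the chosen promoters, was at 65.8 ± 0.525 CPM in MIA_Acu and 56.2 ± 3.94 CPM in MIA (SD, n = 4 each, edgeR adjusted p = 0.114). The cohesin subunit gene Stag1 was at 55.4 ± 2.13 CPM in MIA_Acu and 44.9 ± 5.1 CPM in MIA (adjusted p = 0.115 by edgeR). Of 18 partners inside the cell, 0 passed (11 higher, 7 lower, median 0.10). Ptk2b, the kinase PYK2 that Pcdha and Pcdhg proteins restrain, was at 23.8 ± 4.21 CPM in MIA_Acu and 35.3 ± 4.21 CPM in MIA (edgeR adjusted p = 0.0881). Ret, a receptor kinase reported to bind Pcdha and Pcdhg proteins, was at 522 ± 92.2 CPM in MIA_Acu and 694 ± 103 CPM in MIA (edgeR adjusted p = 0.156).

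The 11 WAVE complex genes also had 0 past the threshold (5 higher, 6 lower, median -0.07). Cyfip2 was at 340.0 ± 29.3 CPM in MIA_Acu and 432 ± 43.7 CPM in MIA (edgeR adjusted p = 0.111), and Wasf3 stood at -0.22 on the log2 scale (SE 0.07, adjusted p = 0.126). Among relatives, 16 tested large cadherins had 0 past the threshold (10 higher, 6 lower, median 0.12), 19 classical and type II cadherins had 0 (9 higher, 10 lower, median -0.01), and 28 neurexins, neuroligins and other synaptic adhesion genes had 0 (7 higher, 21 lower, median -0.24). Cdhr1, a photoreceptor cadherin, had the smallest p of the first list, at 33.7 ± 4.99 CPM in MIA_Acu and 50.3 ± 1.0 CPM in MIA, and Celsr3, an axon guidance cadherin, was next with a log2 fold change of -0.51 (SE 0.11). Cdh4 and Cdh8 had -0.50 (SE 0.12) and -0.38 (SE 0.11), and Slitrk3 and Nrxn2 had -0.43 (SE 0.09) and -0.36 (SE 0.09), none past the threshold in 8 libraries. At an unadjusted p under 0.05, which 10.6% of all genes passed lower and 11.2% higher, 13 of the 28 synaptic adhesion genes were lower and 2 higher. By the same measure 3 of 18 partners were lower and 3 higher, 2 of 11 WAVE genes lower and 1 higher, 5 of 16 large cadherins lower and 2 higher, and 3 of 19 classical and type II cadherins lower and 2 higher.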

How the data were processed

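Per the labels' protocols, RNA was taken up in TRIzol and poly(A) libraries were built with a NEBNext Ultra kit. The authors deposited raw counts per Ensembl gene in 1 table. Per the submitters' processing notes, reads were handled with FastQC and Trimmomatic and the build was GRCm39 (mm39). Aligner, counting tool, strandedness and annotation: not given in the sources used here. Columns took their group from their names. The columns MIA 4 and MIA_Acu 3 match no sample title (MIA_3 and MIA_Acu_4 stand among the titles instead), so fits were repeated on the 6 matched libraries and with these 2 exchanged. P-values measure the spread between libraries. No 2 libraries of the same group were duplicates: chi-square per degree of freedom within groups was 19.7 or more. Pairs across groups were not checked.

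Tests used edgeR 4.0.16 in R 4.3.3: filterByExpr (minimum count 10, minimum total 15), TMM scaling, glmQLFit and glmQLFTest on all genes, with Benjamini-Hochberg adjustment over 18971 genes and a threshold of 0.05. CPM use TMM-scaled library sizes, and standard errors come from the F statistic. The test was checked on simulated counts with changes of 2-fold and 4-fold only. Nearly all members here differed by less, so the check does not bear on differences of their size. DESeq2 1.42.0 and voom of limma 3.58.1 were alternatives, as were DESeq2 size factors, other filters and each library left out. Library totals are in the report; counts cover counting error only. Exon lengths and overlaps come from GENCODE M21 and promoters from RefSeq, both GRCm38, so no coordinates of counted features are given. Members, lists and tests were chosen with earlier results of these data known. Genes with values per library were the C-type genes, the 3 most abundant and the 2 of smallest p in each cluster, the tested non-clustered genes and members past a threshold. Others are marked. Of each further list the 2 genes of smallest p are named. Summed markers of 11 cell types or tissues were also read (mean ± SD, n = 4 each). Satellite glia were at 4272 ± 365 CPM in MIA_Acu and 3752 ± 303 CPM in MIA, and mural cells at 565 ± 125 CPM in MIA_Acu and 385 ± 62.2 CPM in MIA. Fibroblasts were at 4505 ± 1622 CPM in MIA_Acu and 2195 ± 837 CPM in MIA, and macrophages at 297 ± 92.9 CPM in MIA_Acu and 230.3 ± 26.3 CPM in MIA. Skeletal muscle was at 3323 ± 2430 CPM in MIA_Acu and 1870 ± 1700 CPM in MIA, and erythroid cells and neutrophils at 893 ± 633 CPM in MIA_Acu and 884 ± 185 CPM in MIA.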

Additional observations from a re-analysis of the deposited data

Results flagged for a closer look

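Within groups of 4 libraries, 70 sets of values of named members and sums were checked for 1 library far from the other 3, which chance flags in about 1 of 20 sets. Pcdha3 was at 6.55 CPM in MIA 2, above 4.56 to 4.84 CPM in the other MIA libraries. MIA_Acu 2 was set apart for Pcdhga3, at 4.89 CPM against 7.97 to 8.02 CPM in its group, and for the summed non-clustered genes, at 389 CPM against 421 to 428 CPM. The ratio of summed Pcdhg to Pcdhb was 0.881 in MIA_Acu 5, against 0.659 to 0.691 in the other MIA_Acu libraries and 0.704 to 0.94 in MIA.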

How the results depend on the processing

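The count of called members was 0 in 8 libraries, 0 to 3 with 1 library left out, 4 in the 6 libraries numbered 1, 2 and 5, and 6 with DESeq2. With the replicate number as a block in these 6 libraries it was 3 (Pcdh1, Pcdha11 and Pcdhac2), beside 2.49% of all genes lower. By edgeR with MIA 4 and MIA_Acu 3 exchanged, 0 of 65 tested members were called, beside 207 of all 18971 genes. Members lower were 35 of 65 in that fit, against 50 with the columns as named. Same-numbered libraries deviated together with correlations of 0.0673, 0.272 and 0.152, and 5 of 6 libraries correlated best with their own number (MIA 1 did not). Pairs with unlike numbers were at -0.249 to 0.148. The labels do not say what the number marks. Whether same-numbered samples share more than a number is not settled, and values are given with and without the block. Without MIA_Acu 2 and MIA_Acu 5, 9 of 11 Pcdha genes were lower (median -0.29). Members lower at an unadjusted p under 0.05 numbered 7 to 14 with 1 library left out and 5 without MIA_Acu 2 and MIA_Acu 5, and members higher 0 to 1, 1 and, with MIA 4 and MIA_Acu 3 exchanged, 2. Medians with 1 library left out were -0.48 to -0.35 for Pcdha, -0.10 to -0.0377 for Pcdhb, -0.26 to -0.04 for Pcdhg and -0.16 to -0.10 for non-clustered genes. The exchange gave Pcdhg a median of 0.21.

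Signs turned for 11 named members, all with log2 fold changes that did not pass. With the exchange, Pcdh9 was at 0.0296, Pcdh7 at 0.0202, Pcdh19 at -0.0203, Pcdh11x at 0.0327, Pcdh12 at -0.25, Pcdhb17 at -0.0102 and Pcdhga6 at 0.0683. With 1 library left out, values ranged from -0.32 to 0.45 for Pcdhgc5, -0.16 to 0.0152 for Pcdh11x, -0.0877 to 0.0388 for Pcdhb22, -0.0584 to 0.0943 for Pcdhb17 and -0.0697 to 0.13 for Pcdhgb6. Pcdhb17 was at -0.000905 in the 6 libraries and -0.0125 with the block, and Pcdhgc5 at -0.27 with the block and -0.68 with voom. Without MIA_Acu 2 and MIA_Acu 5, Pcdhgc5 was at -1.61, Pcdh20 at -0.37, Pcdhb22 at 0.0345 and Pcdhgb6 at -0.0209. The cause of these changes was not tested. DESeq2 size factors, no filter and the stricter filter left the count of called members at 0. Pcdhgc5, Pcdh20 and the tested alternate Pcdha genes are limited by depth, with as few as 2, 4 and 28 counts in a library.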
